A study of Mus musculus with 6 samples.

Results

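The heat shock proteins and their DnaJ cochaperones were read out of a comparison of heart ventricles from finerenone-treated and untreated dystrophic mice. The members were the genes whose platform annotation gives a single symbol of the HSP70, HSP90, small HSP, chaperonin or DnaJ families, found by the pattern of the symbol with pseudogenes left out. They numbered 68 of the 30142 genes named on the array, of which 36 were assigned to the cytosol and nucleus, 8 to mitochondria, 14 to the endoplasmic reticulum (ER) and 10 to other or unsettled places. All 6 mice were C57BL/10 males with the genotype utrn+/-; mdx ("Het"), so treated and control animals alike lacked dystrophin and had 1 functional utrophin allele. The 3 finerenone mice ate Teklad Rodent Chow with 100 ppm of the drug, a non-steroidal antagonist of the mineralocorticoid receptor, from 4 weeks of age. The 3 untreated mice ate the chow without it, and all were 20 weeks old at collection. No mice with intact dystrophin are among the groups, so the comparison is between treatments within the disease model. Each mouse has 1 array, and every value is a log2 signal.

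Heat shock proteins are molecular chaperones that bind unfolded or aggregating proteins and help them fold, assemble, cross membranes or reach degradation. HSP70 proteins work in cycles of ATP hydrolysis, in which J-domain (DnaJ) proteins deliver clients and start hydrolysis while nucleotide exchange factors such as the HSP110 proteins release them. Small HSPs hold clients without ATP and are abundant in striated muscle, HSP90 matures signalling proteins, and mitochondria and the ER each have an HSP70 of their own with a set of J proteins. In the cytosol the inducible genes answer to heat shock factor 1, and in the ER to the unfolded protein response.

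The 6 arrays correlated between 0.9924 and 0.9964 over genes, and untreated replicate 1 had the lowest mean correlation with the others (0.9933, against 0.9946 to 0.9955). Ventricular cardiomyocyte markers lay well above the controls, with a mean of 16.19 to 16.48 over 11 measured genes on the arrays, and all 7 measured B cell markers lay under the array's negative controls everywhere. The median of these controls was 5.04 to 5.33. Since probe sets differ in affinity, signals are compared between arrays for a gene and not between genes.

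Some family genes had no row of their own. Hspa1b, Dnaja1 and Dnajc19 share their rows with another symbol, and Hsp90ab1 is not named in the annotation used here. For Hspa8, the constitutive HSC70, the rule selected a row whose identifier names chromosome 1, while the gene lies on chromosome 9. All 4 rows that carry this symbol alone were at 19.93 on all 6 arrays, the highest value in the table, and the row on chromosome 9, which it shares with small nucleolar RNAs, was at 16.44 on all 6 arrays. Hspa8 therefore had no measurable difference, and its row may not stand for the gene itself. A further pair of members hardly varied between arrays. Hspb6, a small HSP of muscle also called HSP20, ran from 7.84 to 7.87, and Hspb7, the cardiovascular small HSP, from 18.45 to 18.47. A range below 0.05 was found in 3 of 68 members (4.41%), in 0.528% of all genes and in 14.5% of the 861 genes with a mean of at least 15. For these 3 members the arrays resolved no difference.

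On all arrays the signals of 11 members were under the negative control median, and these were mostly genes known from testis or nerve. They were Dnajb3, Dnajb7, Dnajb8, Dnajb13, Dnajc5b, Dnajc5g, Dnajc6 (the neuronal auxilin), Dnajc22, Hspa1l, Hspa2 and Hspb9. Their differences, from -0.15 in Dnajb13 to 0.34 in Dnajb8, are differences between signals at background.

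No member passed the adjusted threshold of 0.05 in limma fitted over all 30142 genes, nor did any gene (0%), and the smallest adjusted p over all genes was 0.597. At an unadjusted p below 0.05 there were 5 of 68 members (7.35%), against 7.81% of all genes. Of these, 4 were higher in treated hearts (Dnajc15, Hspe1, Hspb11 and Dnajb8) and 1 was lower (Hspa12b). The groups did not overlap for 10 members (14.7%), against 12.4% of all genes, which is near the background. In the higher direction there were 8 (11.8%, against 8.17%) and in the lower direction 2 (2.94%, against 4.18%). The median log2 difference, finerenone minus untreated, was 0.05 over the members and 0.03 over all genes, and 43 members were higher (63.2%, against 58.2% of all genes) and 25 lower. After quantile normalization the median of the members was -0.013 and that of all genes -0.006. Bright members moved with the scaling. For the 12 with a mean of at least 12 the median went from 0.02 to -0.16, and for the 1831 genes as bright from 0.16 to 0.00. Under that normalization the groups did not overlap for 6 members higher and 7 lower (5.77% and 6.96% of all genes), so the split between the directions depends on the scaling. Dnaja2 and Dnajb6 overlapped there, and Hspa5 did not. Without untreated replicate 1 the groups did not overlap for 22 members (32.4%), against 22.3% of all genes. That fit has fewer arrays to overlap. The counts without the other arrays ran from 13 to 17 (19.1% to 25%), against 20.8% to 25.7% of all genes.

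**Figure D1:**
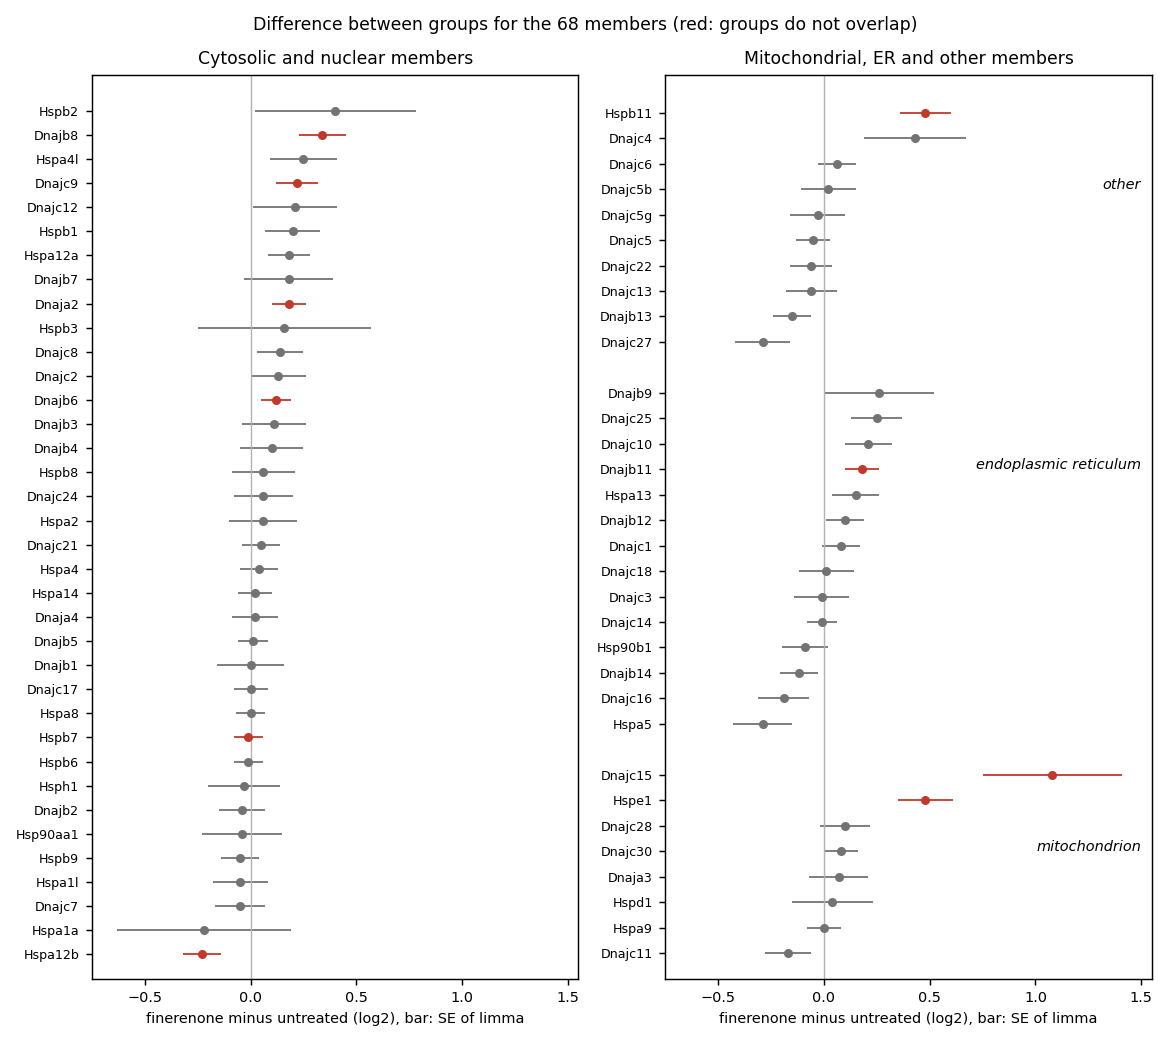
Log2 difference (finerenone minus untreated, horizontal axis) with the limma standard error for each of the 68 members, listed by compartment; red points mark members whose 3 treated and 3 untreated arrays do not overlap. Most members lie within 0.3 of 0, and Dnajc15 stands apart at 1.08.

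Among the 8 mitochondrial members, Dnajc15 and Hspe1 were higher in every treated heart than in any untreated one. The share without overlap was 25.0% (2 higher and 0 lower), against 12.4% of all genes. Dnajc15, an inner membrane J protein that acts at the import motor and restrains respiratory complex I, measured 14.64, 14.82 and 14.40 in treated hearts and 12.77, 14.05 and 13.79 in untreated hearts. The groups did not overlap, and untreated replicate 1 was lowest by more than 1 log2 unit. The difference was 1.08 ± 0.33 (SE), or 2.12-fold (adjusted p = 0.597 in limma), and 0.70 without untreated replicate 1. It was the widest of all members in either direction.

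Hspe1, the HSP10 lid of the mitochondrial chaperonin, measured 10.85, 10.80 and 10.70 in treated hearts and 10.03, 10.47 and 10.42 in untreated hearts. All treated values lay above all untreated ones, with a difference of 0.48 ± 0.13 (SE, adjusted p = 0.597 in limma) that was 0.34 without untreated replicate 1. The means of 5 rows annotated as Hspe1 pseudogenes differed in the same direction, by 0.20 (Hspe1-ps4, at the level of the negative controls) to 0.34 (Hspe1-ps5). Without untreated replicate 1 they ran from -0.16 (Hspe1-ps2) to 0.33 (Hspe1-ps6). Near-identical copies can share signal, so the source of the Hspe1 signal is uncertain.

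Its partner Hspd1, the HSP60 barrel, measured 13.30, 12.92 and 13.38 in treated hearts and 12.92, 13.06 and 13.49 in untreated hearts. The groups overlapped fully, with a difference of 0.04 ± 0.19 (SE). Its sign turned after quantile normalization (-0.16) and cyclic loess (-0.10), with array weights (-0.02), and without untreated replicate 1 (-0.08).

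Hspd1 and Hspe1 lie head to head on chromosome 1, and promoter windows (250 bases before to 50 after the start) were taken from RefSeq, GRCm38.p6. One annotated Hspd1 window shares 285 bases with that of Hspe1, and the other shares 4 and holds no triplet. The Hspe1 window is shown because the pair has a common promoter region and differences on these arrays of 0.04 and 0.48. Heat shock elements, the sites of heat shock factors, are inverted repeats of GAA. The letters searched were 3 such units in a row, GAA NN TTC NN GAA or TTC NN GAA NN TTC, on both strands. This triplet occurs in 0.603% of 32851 promoter windows and in 6 of the 70 windows of members. These belong to 4 of the 55 members with a window, Hspd1, Hspe1, Hsph1 and Dnajb6. The triplets of Hspd1 and Hspe1 are the same bases. In the window of Hspe1 (chr1:55087898-55088197, + strand) 2 overlapping triplets, in capitals, begin at positions -89 and -84 from the start.
Hspe1: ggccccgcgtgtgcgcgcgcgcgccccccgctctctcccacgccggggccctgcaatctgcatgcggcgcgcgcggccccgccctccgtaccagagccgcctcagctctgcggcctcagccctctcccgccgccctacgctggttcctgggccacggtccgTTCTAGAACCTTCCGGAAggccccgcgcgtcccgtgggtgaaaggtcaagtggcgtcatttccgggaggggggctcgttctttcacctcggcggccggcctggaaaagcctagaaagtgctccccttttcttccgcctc

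Hspa9, or mortalin, the HSP70 of the matrix, ran from 15.67 to 15.80 over the 6 arrays with a difference of 0.00 ± 0.08 (SE). It was -0.30 after quantile normalization and -0.14 after cyclic loess. Dnaja3 (TID1), its J protein partner, ran from 10.67 on untreated replicate 1 to 11.15 on untreated replicate 3, and its difference was 0.07, one that turned to -0.09 without untreated replicate 1, to -0.04 after quantile normalization and to -0.03 after cyclic loess. Dnajc11, which takes part in cristae organisation, was the lowest of this group with a difference of -0.17 ± 0.11 (-0.28 without untreated replicate 1). Dnajc28 (0.10) and Dnajc30 (0.08) completed it, and the latter lay near the negative controls with 5.16 to 5.37. The median over the 8 members was 0.07, or 0.003 after quantile normalization, and it ran from 0.023 without untreated replicate 1 to 0.161 without untreated replicate 3. The row that Dnajc19, the import motor subunit TIM14, shares with its pseudogene was at 9.62, 9.51 and 9.34 in treated and 8.94, 9.36 and 9.25 in untreated hearts.

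**Figure D2:**
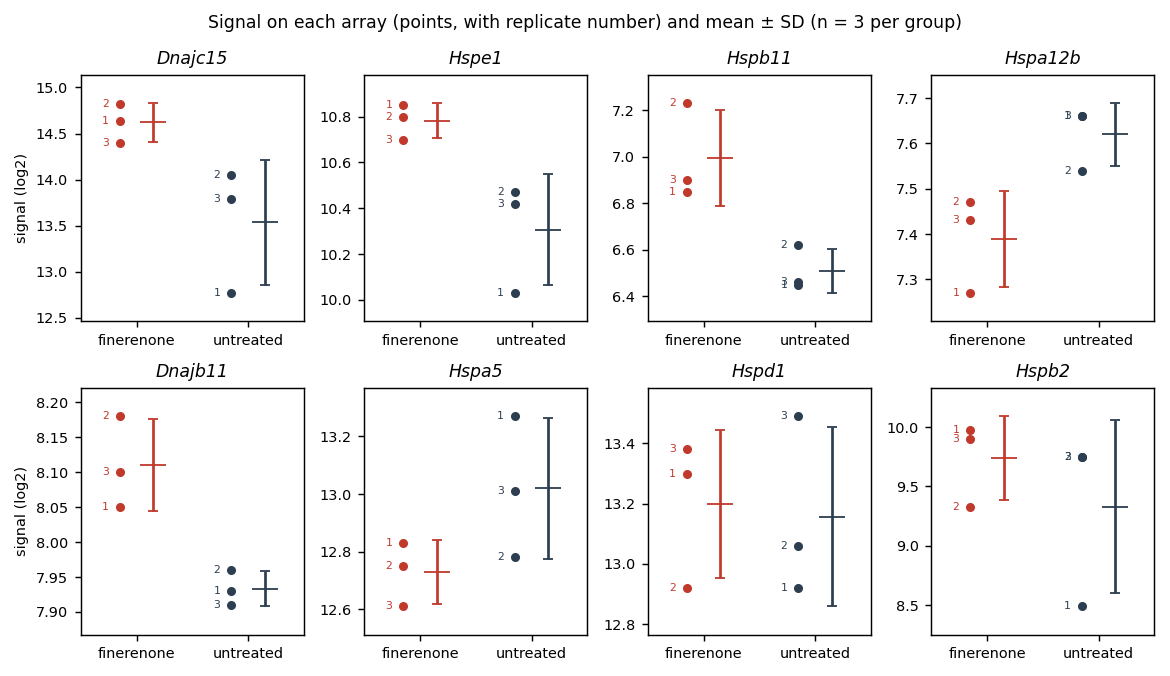
Log2 signal on each array (points with the replicate number) and mean ± SD per group (n = 3 each) for 8 members. Treated and untreated arrays do not overlap for Dnajc15, Hspe1, Hspb11, Hspa12b and Dnajb11, and overlap for Hspa5, Hspd1 and Hspb2. Untreated replicate 1 is the lowest point for Dnajc15, Hspe1, Hspb11 and Hspb2 and the highest for Hspa5. It ties for lowest in Hspd1 and for highest in Hspa12b.

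In the ER, BiP had a lower mean in treated hearts and the J protein Dnajb11 a higher one, and none of the 14 members passed. Hspa5, or BiP, the HSP70 of the ER lumen, measured 12.83, 12.75 and 12.61 in treated hearts and 13.27, 12.78 and 13.01 in untreated hearts. The groups overlapped only in 1 pair of arrays, and untreated replicate 1 was highest. The difference was -0.29 ± 0.14 (SE, adjusted p = 0.673 in limma), the lowest of the ER members. It was -0.16 without untreated replicate 1, -0.47 after quantile normalization and -0.43 after cyclic loess. Hsp90b1, or GRP94, the HSP90 of the ER, measured 14.32, 14.41 and 14.36 against 14.66, 14.32 and 14.39, a difference of -0.09 ± 0.11. Without untreated replicate 1 it was 0.01, after quantile normalization -0.33 and after cyclic loess -0.22.

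Of the J proteins of the lumen, Dnajb11 (ERdj3), which delivers unfolded proteins to BiP, measured 8.05, 8.18 and 8.10 in treated hearts and 7.93, 7.96 and 7.91 in untreated hearts. Its groups did not overlap, with a difference of 0.18 ± 0.08 (SE, adjusted p = 0.643 in limma) that stayed between 0.14 and 0.21 when any 1 array was omitted. Dnajc10 (ERdj5), a disulfide reductase, differed by 0.21 ± 0.11, with 9.95 to 10.23 against 9.79 to 9.97, and by 0.12 after quantile normalization or without finerenone replicate 2. Dnajc3 (P58IPK) differed by -0.01 ± 0.13, and its sign depended on single arrays.

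Dnajb9 (ERdj4), a J protein induced by the unfolded protein response, measured 12.18, 12.90 and 12.24 in treated hearts and 12.59, 12.09 and 11.87 in untreated hearts. Finerenone replicate 2 and untreated replicate 1 were the highest arrays, and the groups overlapped. The difference of 0.26 ± 0.26 (SE) spanned 0.03 (without finerenone replicate 2) to 0.46 (without untreated replicate 1) and was 0.07 after quantile normalization and 0.12 after cyclic loess. The other ER members, mostly membrane J proteins, ran from -0.19 in Dnajc16 to 0.25 in Dnajc25. Over the 14 ER members the median was 0.05, or 0.004 after quantile normalization. Of them 8 were higher and 6 lower, and 58.2% of all genes were higher. The groups did not overlap for 1 of the 14 (7.1%), against 12.4% of all genes.

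The promoters of BiP and GRP94 are shown because both hold the ER stress element, CCAAT and CCACG with 9 bases of any kind between them, on either strand, through which the unfolded protein response acts. These letters occur in 0.119% of the promoter windows and in 3 of the 70 windows of members. Those are windows of Hspa5, Hsp90b1 and Dnajc3, whose differences were -0.29, -0.09 and -0.01. Matches are in capitals. They begin at position -65 from the start in Hspa5 (chr2:34771840-34772139, + strand) and at -212 and -107 in Hsp90b1 (chr10:86705395-86705694, - strand).
Hspa5: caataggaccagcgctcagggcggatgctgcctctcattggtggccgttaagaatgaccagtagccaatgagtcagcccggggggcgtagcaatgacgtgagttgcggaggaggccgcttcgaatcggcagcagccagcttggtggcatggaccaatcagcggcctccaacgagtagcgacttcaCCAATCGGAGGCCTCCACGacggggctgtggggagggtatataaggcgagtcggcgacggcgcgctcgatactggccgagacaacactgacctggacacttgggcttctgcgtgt
Hsp90b1: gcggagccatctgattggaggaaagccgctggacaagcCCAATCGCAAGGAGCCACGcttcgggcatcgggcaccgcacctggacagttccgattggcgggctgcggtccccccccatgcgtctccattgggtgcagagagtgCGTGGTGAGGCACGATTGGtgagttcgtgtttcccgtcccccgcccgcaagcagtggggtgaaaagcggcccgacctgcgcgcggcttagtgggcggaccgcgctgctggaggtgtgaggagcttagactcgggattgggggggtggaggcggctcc

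Among the 36 cytosolic and nuclear members the median difference was 0.06, with 25 higher and 11 lower. Quantile normalization and cyclic loess each gave -0.005, so its sign depended on the normalization. The groups did not overlap for 4 of these members higher and 2 lower (16.7% together), against 12.4% of all genes. The stress-inducible chaperones varied more between mice of a group than between the groups. Hspa1a, the inducible HSP70, measured 5.21, 4.92 and 5.52 in treated hearts and 6.40, 4.88 and 5.02 in untreated hearts. Untreated replicate 1 was highest, and the other 5 signals lay close to the negative controls. The difference was -0.22 ± 0.41 (SE), and 0.26 without that array. The row that Hspa1a shares with its near-identical copy Hspa1b had the same array highest, at 7.94 against 6.71 to 7.12 in the other 5.

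Hsp90aa1, the inducible HSP90, measured 13.73, 13.30 and 13.76 in treated hearts and 13.97, 13.38 and 13.54 in untreated hearts. The groups overlapped, and the difference of -0.04 ± 0.19 (SE) turned to 0.13 without untreated replicate 1, to 0.11 without finerenone replicate 2 and to 0.02 with array weights. Hsph1 (HSP105), an exchange factor that is also induced by stress, measured 10.43, 9.92 and 10.52 against 10.39, 10.16 and 10.40, a difference of -0.03 ± 0.17. Dnajb1, the inducible HSP40, measured 8.68, 8.45 and 8.74 against 8.86, 8.69 and 8.30, a difference of 0.00 ± 0.16. The row shared by Dnaja1, a general J protein, and the microRNA Mir207 measured 10.61, 10.25 and 10.56 against 10.74, 9.69 and 10.00.

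Within the treated group finerenone replicate 2 was lowest for all of these 6 rows, and within the untreated group replicate 1 was highest for 5 of them, Hsph1 being the exception. These rows were put together after their values had been seen. Their shared order is a description of 6 arrays, and their 2 Hspa1a rows can share signal.

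**Figure D3:**
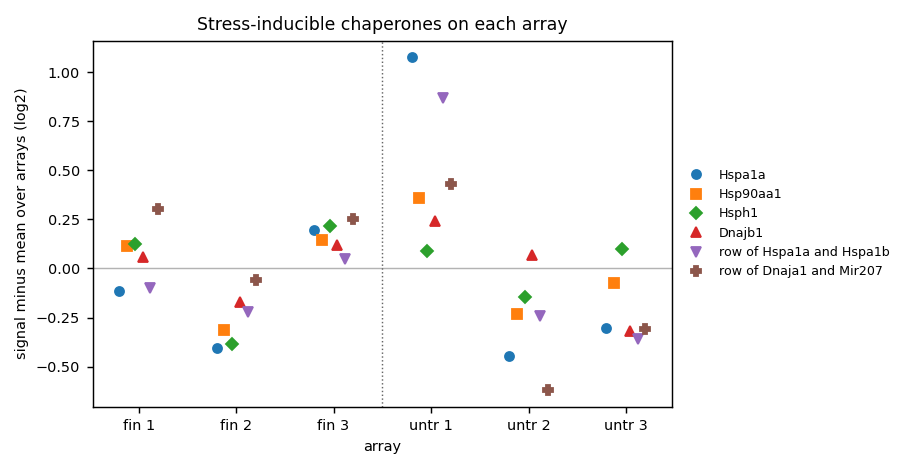
Signal of stress-inducible chaperones on each array (horizontal axis; fin, finerenone; untr, untreated), as log2 signal minus the mean of that row over the 6 arrays. Untreated replicate 1 is highest for Hspa1a, Hsp90aa1 and Dnajb1 and for both shared rows, and finerenone replicate 2 lies below 0 for all 6 rows.

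Promoter windows of these genes are shown for the heat shock elements in them. Hsph1 holds a triplet, in capitals, that begins at position 37 from the start, downstream of it (chr5:149636287-149636586, - strand). In its other annotated window the triplet begins at position 16, also downstream. Hspa1a has in its window (chr17:34972107-34972406, - strand) no triplet but 1 pair of the form GAA NN TTC, at position -104. Such a pair occurs in 7.86% of all windows and in 14 of the 70 windows of members, from 12 members. The pair TTC NN GAA occurs in 8.52% of all windows and in 8 of the 70, from 6 members. The triplet contains both pairs. Hsp90aa1 has no window in the table used.
Hsph1: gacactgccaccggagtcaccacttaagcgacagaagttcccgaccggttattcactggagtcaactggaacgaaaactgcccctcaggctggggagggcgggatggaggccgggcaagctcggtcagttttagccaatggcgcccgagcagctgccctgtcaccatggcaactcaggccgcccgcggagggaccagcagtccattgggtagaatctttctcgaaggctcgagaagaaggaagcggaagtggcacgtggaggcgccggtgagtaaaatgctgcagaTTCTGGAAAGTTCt
Hspa1a: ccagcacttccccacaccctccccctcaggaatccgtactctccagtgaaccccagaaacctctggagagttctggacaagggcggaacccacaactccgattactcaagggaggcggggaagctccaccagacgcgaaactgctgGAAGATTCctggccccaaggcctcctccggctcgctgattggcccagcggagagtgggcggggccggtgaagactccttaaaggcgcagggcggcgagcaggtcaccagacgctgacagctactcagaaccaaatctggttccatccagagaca

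Of the remaining HSP70 and HSP110 proteins, Hspa12b, an atypical HSP70 best known from endothelium, measured 7.27, 7.47 and 7.43 in treated hearts and 7.66, 7.54 and 7.66 in untreated hearts. Every treated heart lay below every untreated one. The difference was -0.23 ± 0.09 (SE, adjusted p = 0.620 in limma) and -0.21 without untreated replicate 1. Of 12 listed endothelial markers, each of the 11 measured had a lower mean under treatment, as had 12599 of all 30142 genes. The groups did not overlap for 2 of the 11, both lower, against 4.18% of all genes in that direction. The median difference was -0.35, and -0.21 without untreated replicate 1. Without that array Pecam1 (0.06) and Emcn (0.05) were higher, and the rest stayed lower. The log2 of the summed marker signal was 15.47 to 15.68 in treated and 15.71 to 16.62 in untreated hearts. None of the markers was below the negative controls on every array. Other cell types moved too, with 10 of 12 smooth muscle and pericyte markers lower (median -0.18) and 15 of 15 macrophage and monocyte markers higher (median 0.31). Their part in the result was not tested, and in whole ventricle fewer cells of a type and less RNA per cell cannot be told apart.

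Hspa4, the widely expressed HSP110, ran from 12.64 to 12.86 with a difference of 0.04 ± 0.09 (SE), which was -0.15 after quantile normalization and -0.10 after cyclic loess. Its relative Hspa4l differed by 0.25 ± 0.16, with 9.53, 9.66 and 9.85 against 9.28, 9.26 and 9.76. Hspa12a, another atypical HSP70, differed by 0.18 ± 0.10 at a signal of 5.16 to 5.50, near the negative controls. Of the 6 cytosolic HSP70 members other than Hspa8, 3 were higher and 3 lower, and Hspa1l and Hspa2 of these were at background.

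Among the small HSPs of muscle, Hspb2 and Hspb3 showed wide spread within groups. Hspb2, a small HSP restricted to heart and skeletal muscle, measured 9.98, 9.33 and 9.90 in treated hearts and 8.49, 9.75 and 9.75 in untreated hearts. The untreated value of 8.49 came from replicate 1, and the difference of 0.40 ± 0.38 (SE) was -0.02 without it. Hspb3, its partner in muscle, measured 8.49, 7.36 and 7.02 against 6.97, 7.82 and 7.61, a difference of 0.16 ± 0.41. Here finerenone replicate 1 was highest by more than 0.6, and single arrays left out gave -0.28 to 0.46. These were the widest standard errors among the members, with that of Hspa1a.

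Hspb8 (HSP22), which with Bag3 sends damaged sarcomere proteins to autophagy, measured 14.42, 14.28 and 14.08 in treated hearts and 13.91, 14.34 and 14.35 in untreated hearts. The groups overlapped. Its difference of 0.06 ± 0.15 (SE) became -0.18 with quantile normalization, -0.07 with cyclic loess and -0.08 without untreated replicate 1. Hspb1 (HSP25), which protects actin filaments, measured 8.39, 8.56 and 8.37 against 8.25, 8.45 and 8.02, a difference of 0.20 ± 0.13 that was 0.09 without untreated replicate 3. Hspb7 is counted among the members with no overlap, with a difference of -0.01 in signals that hardly varied.

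Of the cytosolic J proteins, Dnaja2, a general partner of HSC70, measured 13.55, 13.48 and 13.55 in treated hearts and 13.44, 13.26 and 13.34 in untreated hearts. The groups did not overlap, with a difference of 0.18 ± 0.08 (SE, adjusted p = 0.660 in limma), but it was 0.00 after quantile normalization and 0.04 after cyclic loess. Dnajb6, a J protein of the Z-disc that suppresses aggregation and is mutated in a limb-girdle muscular dystrophy, measured 8.21, 8.27 and 8.28 against 8.18, 8.13 and 8.11. It too did not overlap, by a narrow margin, and its difference of 0.12 ± 0.07 was 0.08 after quantile normalization. Dnajb4, another muscle J protein, had 1 high array, finerenone replicate 3 at 8.39 against 7.87 to 8.04 elsewhere. Its difference was 0.10 ± 0.15 and -0.07 without that array.

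The window of Dnajb6 (chr5:29735648-29735947, + strand) is shown as the fourth member with a heat shock triplet, which begins at position -46, in capitals.
Dnajb6: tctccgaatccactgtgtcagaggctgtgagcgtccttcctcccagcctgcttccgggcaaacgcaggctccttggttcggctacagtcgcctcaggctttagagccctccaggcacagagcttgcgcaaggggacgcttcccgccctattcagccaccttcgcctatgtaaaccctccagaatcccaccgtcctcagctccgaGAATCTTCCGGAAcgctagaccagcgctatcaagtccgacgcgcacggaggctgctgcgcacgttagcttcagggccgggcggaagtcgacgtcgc

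Dnajc9, a nuclear J protein that chaperones histones, measured 6.71, 6.71 and 6.63 in treated hearts and 6.29, 6.48 and 6.61 in untreated hearts, a difference of 0.22 ± 0.10 (SE, adjusted p = 0.658 in limma) without overlap, and 0.14 without untreated replicate 1. The other cytosolic DnaJ members above the negative controls ran from -0.05 (Dnajc7) to 0.21 (Dnajc12) and overlapped between groups. Without untreated replicate 1 Dnajc7 was at -0.16 and Dnajc12 at 0.02. Among the 10 members of other places, Hspb11, which despite its name is the intraflagellar transport protein IFT25 and not a small HSP, measured 6.85, 7.23 and 6.90 in treated hearts and 6.45, 6.62 and 6.46 in untreated hearts. The groups did not overlap. The difference of 0.48 ± 0.12 (SE) had the lowest unadjusted p of the members (0.00711, adjusted p = 0.597 in limma) and was 0.45 without untreated replicate 1.

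Dnajc4, a J protein of unsettled location, measured 11.91, 11.86 and 11.92 in treated hearts and 10.96, 11.96 and 11.48 in untreated hearts. The groups overlapped, and the difference of 0.43 ± 0.24 (SE) was 0.18 without untreated replicate 1. Dnajc27, a small GTPase with a J domain, lay lowest of this group at -0.29 ± 0.13, with 7.05, 6.88 and 6.67 against a mean of 7.15 ± 0.16 (SD, n = 3), and its groups overlapped. Dnajc5, the cysteine string protein of secretory vesicles, and Dnajc13, an endosomal J protein, differed by -0.05 and -0.06.

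One array held the lowest signal of a member most often. Untreated replicate 1 had the lowest signal of the 6 arrays for 26 of 68 members (38.2%), against 23.5% of all genes, and the highest for 11 (16.2%, against 17.1%). Finerenone replicate 2 had the highest signal for 19 members (27.9%, against 22.6%). The members with the lowest values on untreated replicate 1 included Dnajc15, Hspe1, Hspb2 and Dnajc4, and those with the highest included Hspa1a, Hsp90aa1, Hspa5 and Hsp90b1. Over all genes the difference between groups correlated with the length of the gene in the genome (Spearman's rho = -0.19 over 29834 genes), and over the members it did so less (rho = -0.07, n = 68). These are descriptions across genes that share the 6 arrays.

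**Figure D4:**
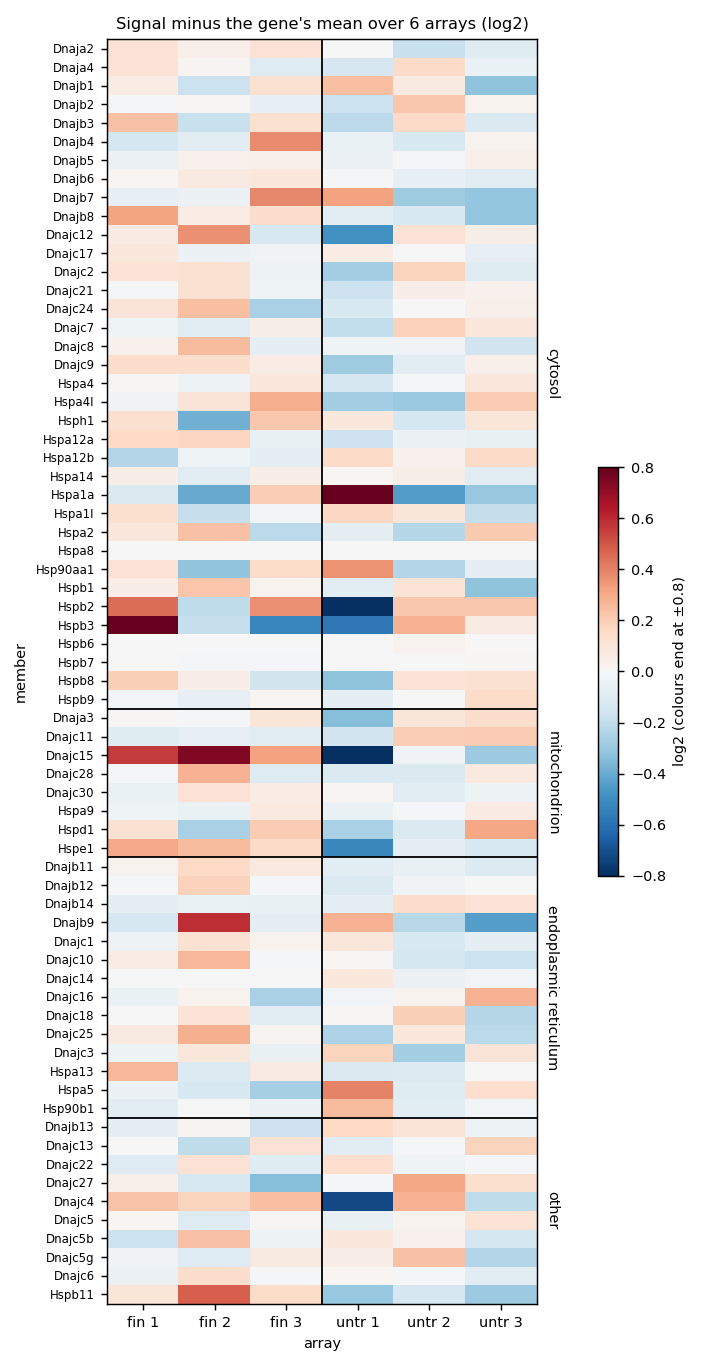
Log2 signal of each of the 68 members (rows, by compartment) on each array (columns; fin, finerenone; untr, untreated) minus the member's mean over the 6 arrays, in colours that end at ±0.8. The darkest cells on untreated replicate 1 are the low signals of Dnajc15, Hspb2 and Dnajc4 and the high signal of Hspa1a; Hspa8, Hspb6 and Hspb7 are nearly blank.

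The genes that work with these chaperones were taken as 7 lists, with 79 of 86 genes measured. None passed the adjusted threshold. At an unadjusted p below 0.05 there were 13 higher and 3 lower, against 5.69% and 2.12% of all genes. The groups did not overlap for 16 higher and 6 lower (27.8% together), against 12.4% of all genes and 15.9% of those with a mean of at least 6. All genes include 14804 that were under the negative control median on every array. Heat shock factor 1 is not named here. Hsf2, a heat shock factor of development, differed by 0.21 ± 0.10 (SE), and Hsf4 by -0.09 ± 0.08.

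The cytosolic chaperonin TRiC, which folds actin and tubulin, and prefoldin, which feeds it, had all 12 measured genes higher in treated hearts. Their median was 0.26, and it was 0.16 after quantile normalization and 0.18 without untreated replicate 1. Without that array Pfdn2 was at -0.05, and the rest stayed higher, Cct2 by 0.03. The groups did not overlap for 6 of the 12, against 12.4% of all genes and 15.9% of those with a mean of at least 6. Of all genes 58.2% were higher, and of the 1831 genes with a mean of at least 12 it was 73.5%. The list does not stand alone in this, as all 15 macrophage and monocyte markers were higher as well (median 0.31, 3 without overlap). At an unadjusted p below 0.05 were the subunits Tcp1 (0.29 ± 0.11, SE), Cct4 (0.32 ± 0.10) and Cct8 (0.25 ± 0.09) and the prefoldins Pfdn1 (0.62 ± 0.17) and Vbp1 (0.39 ± 0.12). Pfdn1 was at 7.66, 7.53 and 7.38 in treated and 6.70, 7.25 and 6.75 in untreated hearts (adjusted p = 0.597 in limma).

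The ER list held genes of opposite direction. Herpud1, a stress-induced component of ER-associated degradation, measured 12.82, 13.49 and 13.92 in treated hearts and 12.60, 12.48 and 12.93 in untreated hearts. Its difference of 0.74 ± 0.28 (SE) came with overlap in 1 pair of arrays and was 0.49 without finerenone replicate 3. Calr (0.26 ± 0.08), the disulfide isomerases Pdia6 (0.25 ± 0.07) and P4hb (0.25 ± 0.09), and Creld2 (0.32 ± 0.13) were higher without overlap. After quantile normalization these differences were 0.07, 0.13, 0.06 and 0.28, in that order. Sec63 (-0.17 ± 0.07), a J protein of the translocon, and Sel1l (-0.20 ± 0.08), of ER-associated degradation, were lower without overlap. In the same setting they were at -0.28 and -0.27. The promoter windows of Calr, Creld2, Pdia6 and Canx hold the same ER stress element as those of BiP and GRP94, and of these 4 Canx, a membrane lectin chaperone, was lower (-0.18 ± 0.08) without overlap. The median of the 19 genes was 0.12, and 0.03 after quantile normalization.

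Of the mitochondrial partners, Hscb, the J protein of iron-sulfur cluster assembly, measured 7.77, 7.98 and 7.26 in treated hearts and 6.77, 7.14 and 7.16 in untreated hearts, a difference of 0.65 ± 0.21 (SE). Timm23, the channel of the inner membrane, differed by 0.44 ± 0.18 (0.28 without untreated replicate 1, 0.19 after quantile normalization) and the protease subunit Afg3l2 by -0.28 ± 0.10. Grpel1, the exchange factor of mortalin, differed by 0.42 ± 0.20, and by 0.22 without untreated replicate 1. The list of 17 had a median of 0.12, and 0.03 without that array.

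Among the 11 HSP70 cochaperones the median was 0.19, 0.04 after quantile normalization and 0.05 without untreated replicate 1. St13, which stabilises the client-bound state of HSP70, measured 11.80, 11.73 and 11.79 in treated hearts and 11.46, 11.54 and 11.54 in untreated hearts. Its groups did not overlap, and its difference of 0.26 ± 0.07 (SE) was 0.15 after quantile normalization and 0.14 after cyclic loess. Bag1 differed by 0.36 ± 0.17 (0.15 after quantile normalization) and Bag3, the partner of Hspb8, by 0.22 ± 0.18. Without finerenone replicate 2 Bag3 was at 0.03, and after quantile normalization at 0.05. Of 14 HSP90 cochaperones with a median of 0.11, the muscle-specific melusin Itgb1bp2 differed by 0.55 ± 0.28 and Cacybp by 0.33 ± 0.16 (0.18 without finerenone replicate 1). Without untreated replicate 1 melusin was at 0.21 and that median at -0.01. Cryab, the alpha B crystallin that is the main small HSP partner of desmin, differed by 0.00 ± 0.16, and Cryaa by -0.12 ± 0.08.

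**Figure D5:**
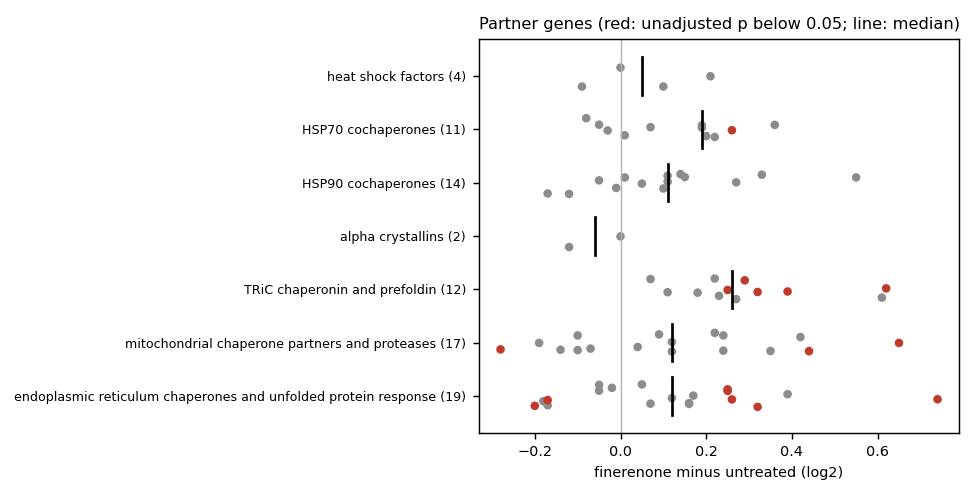
Log2 difference (finerenone minus untreated, horizontal axis) of each measured partner gene by list, with the number of genes in brackets; red points have an unadjusted p below 0.05 in limma and black lines are medians. All 12 genes of TRiC and prefoldin lie above 0, while the ER and mitochondrial lists hold genes on both sides.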

How the data were processed

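Gene expression in ventricles of 6 mice, 3 per group, was measured on 1 Affymetrix array each. The values deposited by the authors are log2 signals, one per probe set. The submitters' processing notes name RMA, the Expression Console and the Transcriptome Analysis Console of Affymetrix, and no version, annotation build or later transformation. RMA pulls arrays to a common distribution, which can remove a shift shared by most genes. In the deposited values 73.5% of the 1831 genes with a mean of at least 12 were still higher in treated hearts. Their median difference was 0.16, and 0.00 after a further quantile normalization. RNA integrity numbers were above 7.3, per the labels' protocols. The number of arrays limits the precision.

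The table held 65956 transcript clusters. A single symbol was listed for 30604, several for 2146 and none for 33206. Symbols were updated by Entrez identifier to RefSeq (GRCm38.p6), which gave 30142 genes, and the cluster with the highest mean stood for a gene. The identifiers named the chromosome that RefSeq gives for 99.7% of genes. Groups and replicate numbers came from sample titles. Differences were fitted over all genes with lmFit and eBayes of limma 3.58.1 (R 4.3.3), two-sided and with no covariate, with Benjamini-Hochberg adjustment and a threshold of 0.05. The fit was tested on simulated data. An exact permutation test of 3 arrays against 3 cannot give a p below 0.1. Promoters came from RefSeq, and 55 members had one. Python 3.11.15, pandas 2.3.3 and matplotlib 3.10.9 made tables and plots.

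The members, compartments, lists and the rule for naming genes were chosen with earlier results of these data known. The rule took a fixed set of members, those at an unadjusted p below 0.05, the extremes and the highest mean of each compartment, and at most 2 genes per partner list with Hsf1, Cryab and Bag3. Dnaja2, Dnajc9, Dnajc10, Dnajc25, Hspa4l, Hspb3 and Hspa12a, and Herpud1, Creld2, P4hb, Sec63, Sel1l, Tcp1, Cct8, Vbp1, Canx, Timm23 and Grpel1, were added after values were seen. Alternatives were quantile normalization, median centring, cyclic loess, filters on dim genes, averaging the clusters of a gene, a prior that is trended and robust, weights per array, a block on the replicate number, and leaving out each array.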

Additional observations from a re-analysis of the deposited data

How the results depend on the processing

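Under all alternatives 0 members and 0 genes passed the adjusted threshold in limma, with 4 to 9 members and 1305 to 2789 genes at an unadjusted p below 0.05. The smallest adjusted p over genes ran from 0.0725 (without finerenone replicate 1) to 0.87. The median of the cytosolic members was -0.005 after quantile normalization and -0.005 after cyclic loess, and that of all members -0.013 and -0.012. The mitochondrial median was 0.003 and 0.014 and the ER median 0.004 and 0.013 in these settings. In both settings the median of all genes moved as well, to -0.006 and -0.001. With single arrays left out, the count of members without overlap ran from 13 to 22 (19.1% to 32.4%), against 20.8% to 25.7% of all genes. The medians ran from 0.021 to 0.084 (cytosolic), 0.023 to 0.161 (mitochondrial), 0.008 to 0.073 (ER) and 0.023 to 0.063 (all members). The same ranges were -0.09 to 0.15 for Dnaja3, -0.07 to 0.19 for Dnajb4, -0.16 to 0.12 for Dnajb1, -0.15 to 0.08 for Dnajc3, -0.16 to 0.13 for Hsp90aa1, -0.16 to 0.01 for Hsp90b1, -0.49 to 0.26 for Hspa1a, -0.02 to 0.09 for Hspa4, -0.02 to 0.61 for Hspb2, -0.28 to 0.46 for Hspb3, -0.08 to 0.15 for Hspb8, -0.08 to 0.21 for Hspd1 and -0.14 to 0.16 for Hsph1. The sign also turned after quantile normalization and cyclic loess for Dnaja3 (-0.04 and -0.03), Hspa4 (-0.15 and -0.10), Hspb8 (-0.18 and -0.07) and Hspd1 (-0.16 and -0.10), and with array weights for Hsp90aa1 (0.02) and Hspd1 (-0.02). The cause was not tested. Deviations from the group means correlated at -0.154, 0.059 and 0.058 over genes for same-numbered arrays, and at -0.174 to 0.122 for differently numbered ones. The labels do not say whether the numbers pair the mice, and so few correlations cannot decide it. With the replicate block 0 members passed, 10 had no overlap and the median of all members was 0.047. Partner lists were run under the same settings after the data were seen.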
